A study of Mus musculus with 8 samples.

Results

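Spink5, Adcy8, Atf5, Foxf2 and Hmcn2 were the 5 genes examined, out of 49315 genes counted in bone marrow stromal cells of the mouse. They were chosen by their level in the library of cluster 1, a population sorted as positive for Sca-1. RPKM is the read count of a gene scaled by its exon length and by the total count of its library, and RPKM + 1 of each gene was more than 2-fold higher in cluster 1 than in any other sorted library, with 200 or more counts there. Levels across the 7 sorted libraries are therefore a description of what chose the genes. The same thresholds held for 23 of the 9754 genes with 200 or more counts in cluster 1, a share of 0.236%, and 18 of these 23 were not among the 5.

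The study divided marrow stromal cells positive for the surface proteins Sca-1 and PDGFR-α into 7 clusters by single-cell RNA-seq. It then sorted cells by surface antigens that stood for each cluster, and sequenced the RNA of the sorted cells and of input bone marrow cells. All 8 libraries were labelled as wild-type C57BL/6J mice of 6 weeks of age, with no treatment named. The methods of the study name C57BL/6JJcl mice and also an EGFP transgenic line, with an age range that starts at 6 weeks. According to the sorting plots of the study, cells were negative for the lineage antigens CD31, CD45 and Ter119 in every gate. Cluster 1 was further negative for CD24 and positive for both Sca-1 and CD39. Cluster 7 was positive for Sca-1 but negative for CD54 and for CD24 and Ly-6C, and cluster 6 was positive for CD24 but negative for Sca-1 and CD39. Cluster 2 was negative for Ly-6C, CD24 and CD39, cluster 3 was positive for Ly-6C and CD24, cluster 4 was positive for CD54 but negative for Ly-6C and CD24, and cluster 5 was positive for CD54 but negative for CD24, Ly-6C and CD121b. The extraction protocol in the labels describes crushed marrow and names no sort, and the number of animals behind each library is not given in the sources used here. Each population had 1 library, so no difference between populations has a replicate check and no p-value is given.

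These genes belong to unrelated families. Spink5 encodes LEKTI, a secreted protein with many Kazal domains that inhibits serine proteases and is best known from the epidermis, where it restrains kallikrein-related peptidases. Adcy8 encodes an adenylyl cyclase of the cell membrane that makes cyclic AMP when calcium-bound calmodulin activates it, and is best known from neurons. Atf5 encodes a basic leucine zipper factor that is translated preferentially under cellular stress. Foxf2 encodes a forkhead transcription factor of mesenchymal cells, and Hmcn2 encodes hemicentin 2, a very large protein of the extracellular matrix. Sca-1, the product of Ly6a, is a surface protein used together with PDGFR-α to collect marrow stromal progenitors, and CD39, the product of Entpd1, degrades extracellular ATP.

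Some libraries stood apart from the others in ways that touch every value below. The total count was 24205863 for cluster 1. Clusters 2, 3 and 4 had 25349917, 27102715 and 32549319 counts, clusters 5, 6 and 7 had 12833648, 31669132 and 33238133, and the input had 20162876. Rn18s-rs5, Lars2 and mmu-mir-689-2 took up 34.8% of the counts of cluster 5, against 1.91% in cluster 1, 10.4% in cluster 2 and 0.274% in cluster 7. A large share on a few loci lowers the RPKM of all other genes in that library. In the input, reads were spread over genes that marrow is not known to use. Of 991 olfactory receptor genes, which serve the sense of smell, 65.8% had 3 or more counts in the input, against 7.16% in cluster 1 and 1.82% in cluster 6. The 95th percentile of their levels was 2.76 RPKM in the input, 0.245 RPKM in cluster 5 and 0.0467 RPKM in cluster 1, and this percentile is given below as the background of each library. Where these reads came from was not tested.

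The label of cluster 1 was compared with its sort markers. The level of Ly6a was 589.8 RPKM in cluster 1, below 931.5 in cluster 3 and above 430.8 in cluster 4 and 225.8 in cluster 7. Clusters 2, 5 and 6 had 78.3, 87.0 and 4.98 RPKM of Ly6a, and the input had 461.1 RPKM. Cluster 1 was thus second to cluster 3, although cluster 3 was not gated on Sca-1, and was far above cluster 6, which was gated as negative. The level of Entpd1 was 8.55 RPKM in cluster 1 against 13.9 in cluster 7, 7.34 in cluster 4 and 2.27 in cluster 3, so cluster 1 was not the highest for CD39 transcript. Cd24a was at 55.6 RPKM in cluster 1. Clusters 6 and 3, both gated as positive for CD24, had the highest and the lowest level of Cd24a among the sorted libraries, at 137.0 and 49.9 RPKM, and cluster 2, gated as negative, had 125.9 RPKM. Transcript levels need not follow the surface protein on which cells are sorted.

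The sequences just before the transcription start are shown because 3 genes that were highest in the same library could be compared there, and because the choice of the genes did not use them. RefSeq promoters on GRCm38.p6 were present for Atf5, Foxf2 and Hmcn2. Of the 2 for Atf5, the one nearest to the start of the gene in the deposited counts was used, and the other was not searched. Those of Adcy8 and Spink5 are not shown. The 250 bases before the start are printed 5′ to 3′ on the strand of the gene, with capitals marking matches to any of 7 motifs. They lie at chr7:44816659-44816908 on the minus strand for Atf5, at chr13:31625566-31625815 on the plus strand for Foxf2 and at chr2:31314082-31314331 on the plus strand for Hmcn2. The start of Atf5 and of Foxf2 is also the outer end of the gene in the deposited counts, and that of Hmcn2 lies 83 bases before it.
Atf5: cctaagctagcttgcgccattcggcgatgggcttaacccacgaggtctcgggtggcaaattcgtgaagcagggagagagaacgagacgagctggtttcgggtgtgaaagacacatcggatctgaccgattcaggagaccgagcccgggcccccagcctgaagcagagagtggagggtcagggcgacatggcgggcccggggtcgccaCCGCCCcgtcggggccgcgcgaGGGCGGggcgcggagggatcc
Foxf2: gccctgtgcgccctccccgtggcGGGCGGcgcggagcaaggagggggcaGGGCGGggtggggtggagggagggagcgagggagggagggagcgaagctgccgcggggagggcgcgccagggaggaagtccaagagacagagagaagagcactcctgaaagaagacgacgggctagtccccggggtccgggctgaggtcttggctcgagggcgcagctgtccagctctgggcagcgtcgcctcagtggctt
Hmcn2: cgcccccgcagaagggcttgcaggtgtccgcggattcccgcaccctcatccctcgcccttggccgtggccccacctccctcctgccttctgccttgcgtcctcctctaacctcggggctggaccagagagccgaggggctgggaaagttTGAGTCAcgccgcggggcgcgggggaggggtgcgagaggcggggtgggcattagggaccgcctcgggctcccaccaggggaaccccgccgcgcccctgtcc

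All 3 promoters were rich in G and C, with 66.8% in Atf5, 71.6% in Foxf2 and 72.4% in Hmcn2, against a median of 52.4% over the 32851 promoters of the table. The ratio of observed to expected CpG was 0.961 in Atf5, 0.724 in Foxf2 and 0.673 in Hmcn2, against a median of 0.373. The motifs searched on both strands were TATAAA (the TATA box), CCAAT (the CCAAT box), GGGCGG (the GC box), TGACGTCA (the cAMP response element), TGANTCA (AP-1), TGTTTAC (forkhead factors) and TTGCATCA (CEBP and ATF dimers), and no motif contains another. GGGCGG occurred 2 times in Atf5 and 2 times in Foxf2, and 32.7% of all promoters of the same length held it. TGANTCA occurred 1 time in Hmcn2, 101 bases before the start, and 6.75% of all promoters held it. No match of the other 5 motifs was found in these windows, of which CCAAT was held by 33.8% of all promoters, TATAAA by 12.4%, TGTTTAC by 3.17%, TGACGTCA by 1.55% and TTGCATCA by 0.791%. No motif was therefore found in all 3 windows.

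Spink5 lies on chromosome 18 from 43963235 to 44022501 on the plus strand (GRCm38, ENSMUSG00000055561), with 4785 bases of exon. Its level was 11.5 RPKM in cluster 1 from 1333 counts, with an exact 95% Poisson interval of 10.9 to 12.1. Among the other sorted libraries, it was 0.0412, 0.123 and 0.218 RPKM in clusters 2, 3 and 4, and 0.179, 0.0330 and 0.176 RPKM in clusters 5, 6 and 7, from 5 to 34 counts each. Cluster 1 thus held 93.7% of the summed RPKM of Spink5 over the sorted libraries, and no other sorted library reached 1 RPKM. The ratio of RPKM in cluster 1 to that in cluster 4, the next library, was 52.7 (95% interval 37.5 to 76.5), and the ratio of RPKM + 1, on which the gene was chosen, was 10.3. Intervals here cover counting error only, since copies made by PCR may have been counted more than once. Among the low libraries, only the step from cluster 3 to cluster 2 was larger than the counting error, with a ratio of 2.99 (1.05 to 10.4). In cluster 5 the level of 0.179 RPKM lay below the background of that library. In RNA from many cells, fewer cells that express a gene and less RNA per cell cannot be told apart.

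Adcy8 lies on chromosome 15 from 64699042 to 64922296 on the minus strand (ENSMUSG00000022376), with 5032 bases of exon. Its level was 2.81 RPKM in cluster 1 from 342 counts (2.52 to 3.12). It was 0.00784, 0.0880 and 0.0611 RPKM in clusters 2, 3 and 4, and 0.139, 0.00628 and 0.120 RPKM in clusters 5, 6 and 7, from 1 to 20 counts each. Adcy8 was thus near the limit of detection in clusters 2 and 6, with 1 count each, and low in the other 4 libraries, of which clusters 3, 4 and 7 lay above their background. The ratio of RPKM to cluster 5, the next library, was 20.1 (10.5 to 44.4), and that of RPKM + 1 was 3.34. Against cluster 6 the ratio of RPKM was 447.4, but the interval of 79.8 to 17724 shows how little 1 count fixes it. Levels in clusters 2, 5 and 6 were below the background of their libraries. In cluster 1 itself Adcy8 was a gene of low abundance, since 16.1% of the genes with 200 or more counts had lower RPKM.

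Atf5 lies on chromosome 7 from 44812256 to 44816658 on the minus strand (ENSMUSG00000038539), with 1993 bases of exon. Its level was 31.4 RPKM in cluster 1 from 1513 counts (29.8 to 33.0). It was 8.91, 8.72 and 6.88 RPKM in clusters 2, 3 and 4, and 8.17, 1.36 and 2.17 RPKM in clusters 5, 6 and 7. Unlike Spink5 and Adcy8, Atf5 was thus present in every sorted library. Clusters 2, 3 and 5 formed a plateau in which neighbours did not differ beyond counting error. Cluster 4 lay just below it, and clusters 7 and 6 followed at lower levels, with a ratio of cluster 4 to cluster 7 of 3.16 (2.62 to 3.84). The ratio of RPKM in cluster 1 to that in cluster 2 was 3.52 (3.17 to 3.92), and that of RPKM + 1 was 3.27. Without the 3 loci that filled the cluster 5 library, cluster 5 became the next library and the ratio of RPKM + 1 was 2.44. Of the exon bases of Atf5, 288 (14.5%) are shared with ENSMUSG00000109511 and 153 (7.68%) with Il4i1, both on the opposite strand. Since the strand setting of the counting is not given in the sources used here, reads there cannot be assigned with certainty. ENSMUSG00000109511 was at 18.7 RPKM in cluster 1 and between 11.4 and 24.8 RPKM in the other sorted libraries, so its order differed from that of Atf5, and Il4i1 was at 0.101 RPKM in cluster 1.

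Foxf2 lies on chromosome 13 from 31625816 to 31631403 on the plus strand (ENSMUSG00000038402), with 2363 bases of exon. Its level was 4.21 RPKM in cluster 1 from 241 counts (3.70 to 4.78). It was 0.835, 0.562 and 0.858 RPKM in clusters 2, 3 and 4, and 0.363, 0.601 and 0.980 RPKM in clusters 5, 6 and 7, from 11 to 77 counts. All other sorted libraries thus lay below 1 RPKM, and in their order no neighbouring pair differed beyond counting error. The ends of this order did, with intervals of 0.774 to 1.23 RPKM in cluster 7 and 0.181 to 0.649 RPKM in cluster 5. The ratio of RPKM to cluster 7, the next library, was 4.30 (3.31 to 5.63), and that of RPKM + 1 was 2.63. Within its exons lie the 98 bases of ENSMUSG00000098266, which had no count in any library.

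Hmcn2 lies on chromosome 2 from 31314415 to 31460738 on the plus strand (ENSMUSG00000055632), with 16073 bases in 135 exon intervals. Its level was 24.2 RPKM in cluster 1 from 9432 counts (23.8 to 24.7), so it had the most counts of the 5 genes. It was 0.722, 3.44 and 8.66 RPKM in clusters 2, 3 and 4, and 2.83, 0.0452 and 2.96 RPKM in clusters 5, 6 and 7. Hmcn2 was thus graded over the sorted libraries, and it nearly vanished in cluster 6, which was gated as negative for Sca-1. Cluster 1 exceeded cluster 4 by a ratio of RPKM of 2.80 (2.70 to 2.90), or 2.61 for RPKM + 1. Cluster 4 exceeded cluster 3 by 2.52 (2.37 to 2.67), and only clusters 7 and 5 did not differ beyond counting error. No other gene overlaps Hmcn2 in the deposited counts.

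**Figure D1:**
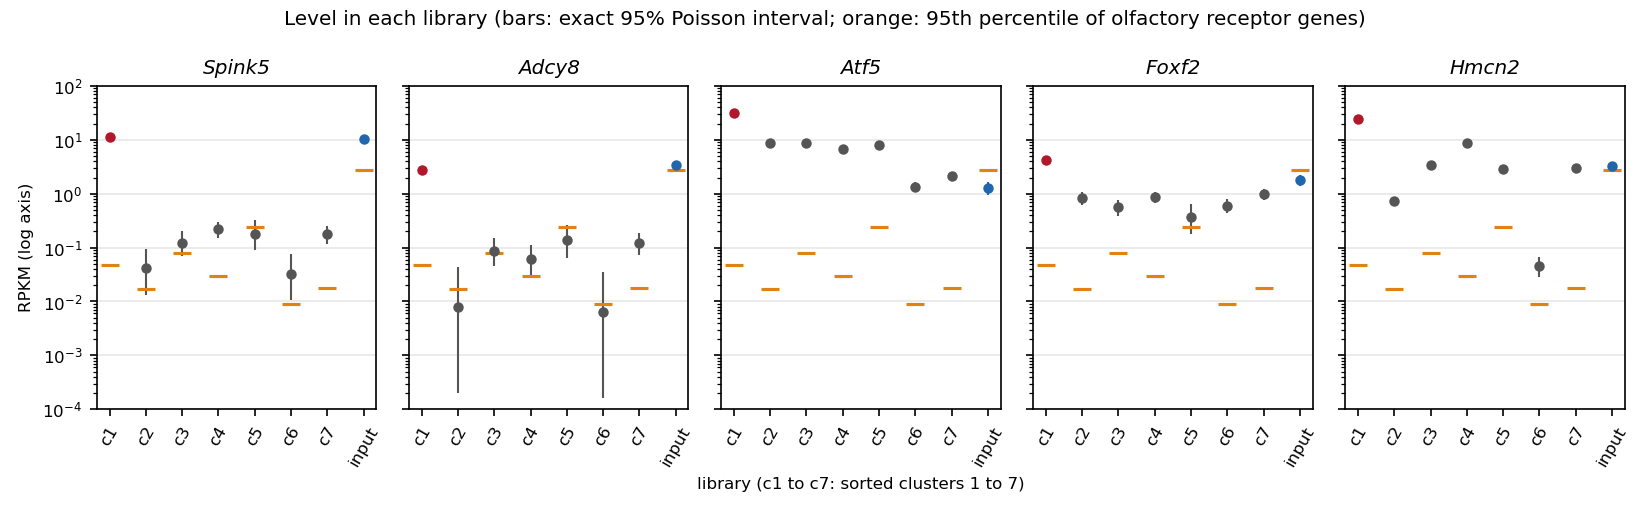
RPKM of each gene (log axis) in the 7 sorted libraries (grey, with cluster 1 in red) and the input (blue), with exact 95% Poisson intervals of the count. Short orange lines mark the 95th percentile of 991 olfactory receptor genes in each library, which reaches 2.76 RPKM in the input, so that the input levels of Adcy8 and Hmcn2 lie just above it and those of Atf5 and Foxf2 below it.

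The input had no part in the choice of the genes, and it divided them. The level in cluster 1 did have a part, so their ratios to the input are not free of the choice. Atf5 and Hmcn2 were more than 2-fold higher in cluster 1 than in the input by RPKM + 1, whereas Spink5 and Adcy8 were at similar levels in both. Over all 9754 genes with 200 or more counts in cluster 1, 8.46% were more than 2-fold above the input and 8.11% more than 2-fold below it, and the median ratio was 0.927. The level of Atf5 was 31.4 RPKM in cluster 1 and 1.27 RPKM in the input, a ratio of 24.7 (18.7 to 33.3), and the input had a lower level than any sorted library, although its interval of 0.945 to 1.67 RPKM held the level of cluster 6. The ratio of RPKM for Hmcn2 was 7.54 (7.07 to 8.05), with an input level of 3.22 RPKM that lay below that of cluster 3 and above that of cluster 7. For Foxf2, at 1.76 RPKM in the input, it was 2.39 (1.86 to 3.10), and the ratio of RPKM + 1 was 1.89. This ratio passed 2-fold with TMM factors (2.29), DESeq2 size factors (2.23) and equal depth (2.01), so the count of genes above 2-fold changed from 2 to 3 of 5.

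Spink5 reached 10.2 RPKM in the input from 984 counts (9.57 to 10.9), which made the ratio of cluster 1 to the input 1.13 (1.04 to 1.23), or 1.63 with TMM factors over the 8 libraries. The input level was 46.7 times (33.2 to 67.9) that of cluster 4, the highest of the other sorted libraries. Of the 991 olfactory receptor genes, 3 reached this level in the input. Adcy8 was at 3.38 RPKM in the input from 343 counts (3.03 to 3.76), and the ratio of cluster 1 to the input was 0.831 (0.713 to 0.968). This direction turned with TMM factors, with which the ratio was 1.20. These factors lower the input by 0.68 and cluster 1 by 0.14 on the log2 scale. Of the olfactory receptor genes, 36 reached the level of Adcy8 in the input, 38 that of Hmcn2, 104 that of Foxf2 and 155 that of Atf5, and none reached the level of any of the 5 genes in cluster 1. How much of the input level of each gene belongs to this background was not tested.

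**Figure D2:**
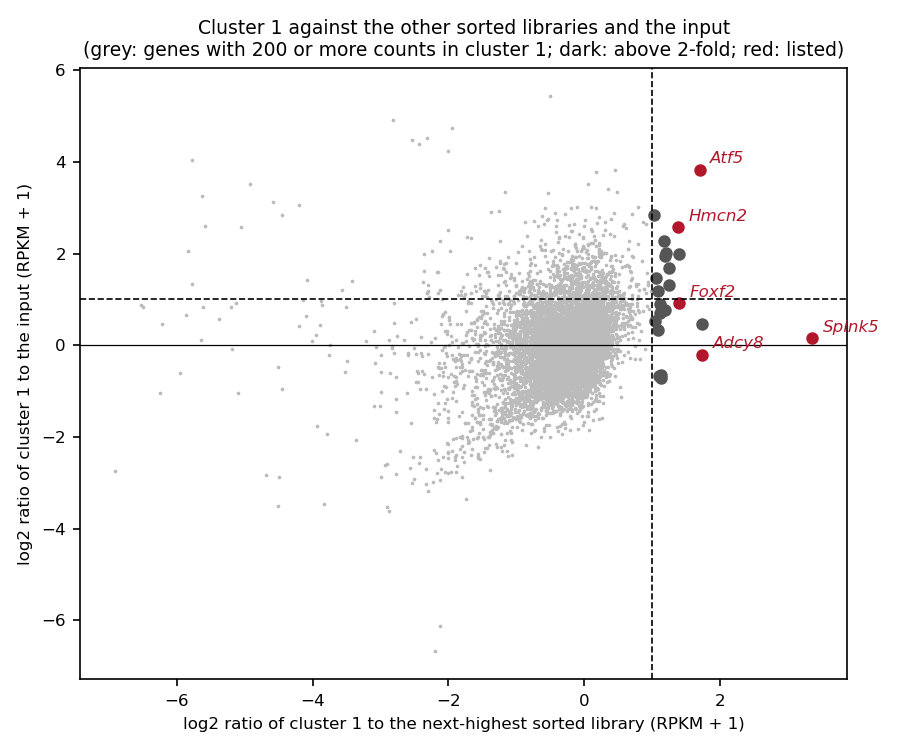
Log2 ratio of RPKM + 1 in cluster 1 to the next-highest sorted library (horizontal axis) and to the input (vertical axis) for 9754 genes with 200 or more counts in cluster 1. Dashed lines mark 2-fold, dark points the 23 genes beyond it on the horizontal axis and red points the 5 genes, of which Atf5 and Hmcn2 lie above the line for the input and Spink5 and Adcy8 near 0.

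The 5 genes were 5 of the 7 with the highest ratios to the next library, and Hoxd13 and Adamts8 were the others. Hoxd13, a homeobox gene of the distal limb, was at 6.89 RPKM in cluster 1 and 1.36 RPKM in cluster 7, with a ratio of RPKM + 1 of 3.35. Adamts8, a secreted metalloprotease, was at 19.6 RPKM in cluster 1 and 6.84 RPKM in cluster 7 (2.63). The 16 further genes above 2-fold, from the highest ratio of 2.39 to the lowest of 2.04, were Adamts19, Meox1, Camk2n1, Pcdh7, Cst6, Col15a1, E130114P18Rik, Kera, Meg3, Adam33, Isl1, Egfl6, Plcb4, Myh11, Pde9a and Col5a3. They include Meox1 and Isl1, which encode homeobox transcription factors, Kera, which encodes the proteoglycan keratocan, Col15a1 and Col5a3, which encode collagen chains, and Cst6, which encodes the cysteine protease inhibitor cystatin E/M. The most abundant was Kera, at 278.2 RPKM in cluster 1, 126.3 RPKM in cluster 7 and 456.9 RPKM in the input. Just inside the threshold, Col5a3 had 119.5 RPKM in cluster 1 and 58.1 RPKM in cluster 7, and just outside it were Khdrbs3 (ratio 1.97), Akap12 (1.95), Col4a6 (1.93), Mex3b (1.93) and Clec1a (1.90).

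The next-highest library was cluster 7 for 10 of the 23 genes, cluster 4 for 7, cluster 2 for 3, cluster 3 for 2 and cluster 5 for 1. Cluster 6 was the lowest sorted library for 18 of the 23, which is a description, since the sorted libraries chose these genes. Over the 9754 genes, cluster 6 was the lowest for 26.0% and cluster 5 for 53.4%. Of the 5 genes, Foxf2 alone was not lowest in cluster 6, with its lowest level in cluster 5. For Spink5 and Adcy8, clusters 6 and 2 did not differ beyond counting error. Against the input, 11 of the 23 were more than 2-fold higher in cluster 1, beside the 8.46% of all genes given above. That share is no fair baseline, since the 23 were chosen for a high level in cluster 1. By RPKM, 4 of the 23 were higher in the input, namely Adcy8, E130114P18Rik, Kera and Isl1. With TMM factors 11 of the 23 genes stayed above 2-fold and with DESeq2 size factors 12, and the 5 genes were among them in both cases.

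**Figure D3:**
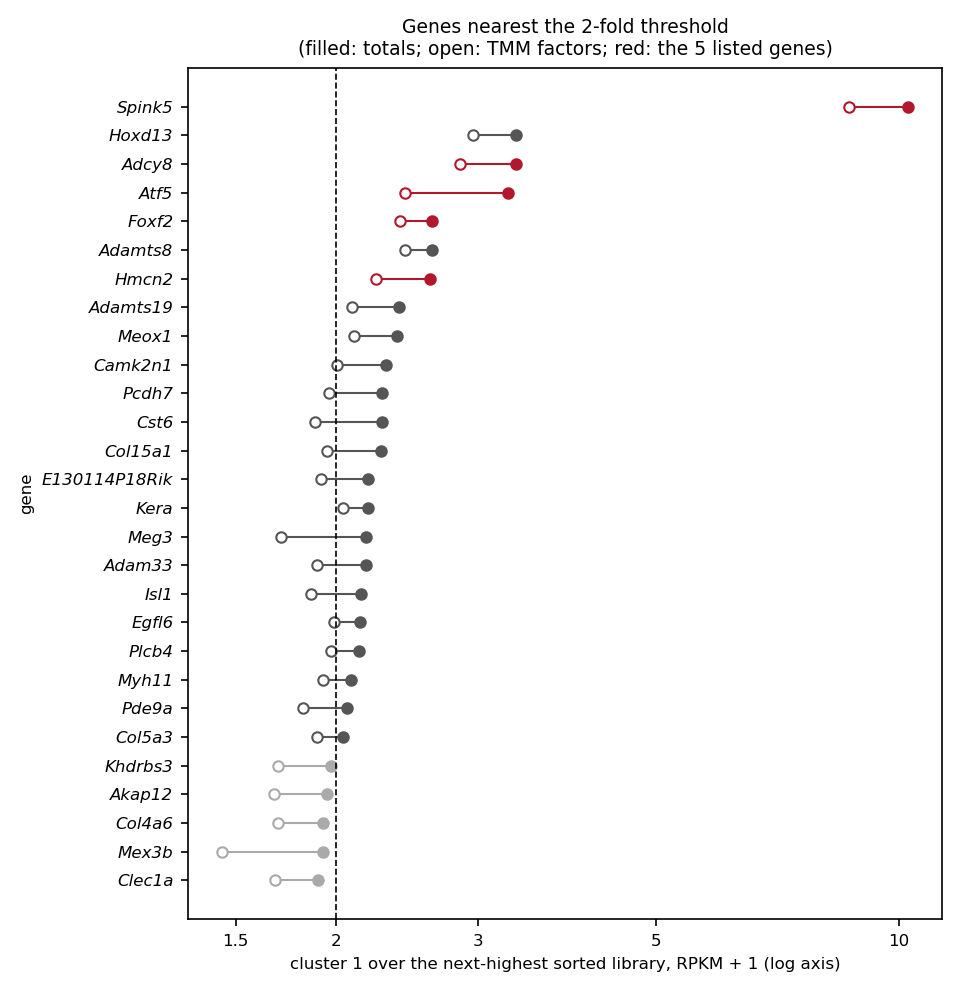
Ratio of RPKM + 1 in cluster 1 to the next-highest sorted library (log axis) for the 23 genes above 2-fold and the 5 nearest below, with totals (filled) and with TMM factors (open). The 5 genes (red) stay to the right of the dashed 2-fold line with both scalings, from 2.24 for Hmcn2 to 8.67 for Spink5 with TMM factors, and 12 of the other 18 cross it.

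For likeness among the genes, Pearson's r of log2(RPKM + 1) was taken over the 7 sorted libraries, each of which brings its own depth and composition to all genes, and is a description. Spink5 and Adcy8 had the highest r of all pairs, at 0.998, and 0.995 over 8 libraries with the input. Without cluster 1, by which both were chosen, it was 0.784 over 6 libraries. Spink5 and Foxf2 had an r of 0.958 with cluster 1 and 0.06 without it, and Adcy8 and Foxf2 had an r of 0.946 with it and -0.28 without it. Hmcn2 and Spink5 went the other way, with 0.778 and 0.925. Most of the likeness of Foxf2 to Spink5 and Adcy8 was therefore the high value in cluster 1. The values of r without cluster 1 rest on low counts, 5 to 34 a library for Spink5 and 1 to 20 for Adcy8. They therefore lean on levels near the limit of detection.

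Among 6971 genes with a symbol, 200 or more counts in their highest sorted library and a range above 2-fold, Cst6 followed Adcy8 as the gene most like Spink5 (0.972), with 2.88 RPKM in cluster 1 and 0.329 to 0.701 RPKM in the other sorted libraries. Cst6 was also next after Spink5 for Adcy8 (0.970), and was followed by Plcb4 (0.949), a phospholipase C that releases calcium from stores. For Atf5 the most similar genes were Vat1 (0.981), Map4k4 (0.975) and Tmem88 (0.973), each lower in the input than in clusters 1 to 5. Foxf2 was most like Col15a1 (0.975), Reps2 (0.966) and Gabra4 (0.964). Hmcn2 was most like Rbm19 (0.986), Pcdh19 (0.985) and Dennd2a (0.983), and Pcdh19, an adhesion protein of the cadherin family, was at 3.45 RPKM in cluster 1, 2.25 RPKM in cluster 4 and 0.103 RPKM in cluster 6. The first neighbours of Spink5, Adcy8 and Atf5 were unchanged with TMM factors and DESeq2 size factors, whereas none of the 3 genes most like Foxf2 remained among its first 3 with TMM factors. Cst6 fell to rank 7 for Spink5 and rank 5 for Adcy8 with TMM factors, and to ranks 11 and 24 with the input added. Rbm19 fell to rank 15 for Hmcn2 and Map4k4 to rank 67 for Atf5 with TMM factors. With the input added, Col15a1 fell to rank 803 for Foxf2 and Plcb4 to rank 171 for Adcy8.

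Genes of the same families and pathways were set against the median of the other 6 sorted libraries, among genes that exceeded 2 RPKM in any sorted library. Of 12360 such genes, 5.21% were more than 2-fold higher in cluster 1 by RPKM + 1 and 1.73% more than 2-fold lower. With TMM factors the shares were 2.76% and 2.52%, because the median log2 ratio of all genes was 0.24 with totals and 0.00 with TMM factors. Cluster 1 was the highest sorted library for 21.3% of the genes. Of the 8 sort markers, Ly6a, Ly6c1, Icam1 and Pdgfra were more than 2-fold higher with totals, and Ly6a and Ly6c1 alone stayed so with TMM factors. No sort marker was more than 2-fold lower with these scalings, but Ly6c2 was just beyond it with DESeq2 size factors (0.4996). The 5 genes themselves are counted in the lists that follow, and their part in the counts follows from how they were chosen.

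Of the 10 adenylyl cyclases, 7 entered, and Adcy8 and Adcy7 were more than 2-fold higher with totals. Adcy7, at 12.9 RPKM the most abundant cyclase of cluster 1, was at 17.4 RPKM in cluster 4 and 16.9 RPKM in cluster 7, and its ratio to the median fell from 2.18 to 1.91 with TMM factors. Adcy8 accordingly contributed the smaller part of cyclase transcript in cluster 1, where the list summed to 36.5 RPKM, against 39.1 in cluster 4 and 39.8 in cluster 7. Of 30 genes of cAMP signalling, 2 were higher and 2 were lower. Akap12, which anchors protein kinase A, was at 18.5 RPKM in cluster 1 against a median of 5.73, and Pde1a, a phosphodiesterase activated by calmodulin, was at 4.86 against 1.84 RPKM and fell below 2-fold with TMM factors (1.86). Pth1r, the receptor of parathyroid hormone, was lower, at 21.8 RPKM in cluster 1 against a median of 58.1 RPKM, with 41.1 to 64.6 RPKM in clusters 3, 4, 5 and 7 and 401.6 and 351.5 RPKM in clusters 2 and 6, as was Gnai1, an inhibitory G protein subunit, at 3.94 against a median of 11.5 RPKM, although cluster 7 had 3.84 and cluster 4 had 5.80 RPKM. The most abundant gene of the list in cluster 1 was Calm2, which encodes calmodulin, at 606.2 RPKM and with a ratio to the median of 0.99.

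Of 17 genes of the ATF and CEBP family, Atf5 and Cebpd were higher and Batf was lower. Cebpd was at 133.7 RPKM in cluster 1 but at 197.3 RPKM in cluster 4, and its ratio fell from 2.18 to 1.69 with TMM factors. Batf was at 5.23 RPKM in cluster 1 and 23.8 RPKM in cluster 2. Atf3 and Cebpb, at 461.6 and 455.7 RPKM the most abundant members in cluster 1, had ratios of 1.61 and 1.497. Atf5 is also counted in a pair of stress programmes, where it is higher by its choice. Of 39 genes of the integrated stress response, no other was more than 2-fold higher, Ppp1r15a came nearest with a ratio of 1.96, and Chac1 was lower, at 2.12 RPKM in cluster 1 against a median of 6.72 RPKM, although cluster 7 had 1.73 RPKM, and the median log2 ratio of the list was 0.13 against 0.24 for all genes. Atf4, the main transcription factor of this response, was at 348.8 RPKM in cluster 1, 375.4 in cluster 4 and 132.9 in cluster 6, with a ratio of 1.39. Of 11 genes of the mitochondrial unfolded protein response, none but Atf5 was beyond 2-fold, and the chaperonin genes Hspd1 and Hspe1 had ratios of 1.12 and 1.26.

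Of 36 forkhead genes, 18 entered, with Foxf2 higher and Foxa3 lower. Foxa3 was at 0.608 RPKM in cluster 1 against a median of 4.40 RPKM, and clusters 3, 5 and 7 were also below 1 RPKM, at 0.706, 0.995 and 0.783 RPKM, while clusters 2 and 6 had 36.3 and 30.1 RPKM. Foxf1, the closest relative of Foxf2, was at 3.39 RPKM in cluster 1, with 3.65 and 3.22 RPKM in clusters 3 and 4 and 0.710 RPKM in cluster 5, and with a ratio to the median of 1.15, so the pattern of Foxf2 was not seen in Foxf1. The most abundant forkhead gene in cluster 1 was Foxn3, at 15.1 RPKM, followed by Foxc1, at 14.4 RPKM. Foxc1 lies on the same chromosome 175288 bases beyond Foxf2 and was lowest in cluster 1 among the sorted libraries, with 15.1 RPKM in cluster 5 and 27.9 RPKM in cluster 2.

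All 8 hemicentin and fibulin genes entered, and 4 were more than 2-fold higher with totals, namely Hmcn2, Fbln1, Fbln2 and Efemp1, and none was lower. Fbln2 was at 122.3 RPKM in cluster 1 and 91.5 RPKM in cluster 7, whereas Fbln1 was at 34.6 RPKM in cluster 1 and 97.6 RPKM in cluster 4. With TMM factors Hmcn2 alone stayed above 2-fold, since the ratios of Fbln2, Efemp1 and Fbln1 were then 1.90, 1.79 and 1.57. Hmcn1, the paralogue of Hmcn2, was also highest in cluster 1, at 2.05 RPKM against 1.28 in cluster 3 and 0.0358 in cluster 6, with a ratio of 1.995 that did not pass. These 8 genes had a median log2 ratio of 1.03 with totals, against 0.24 for all genes.

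Of 24 genes with Kazal domains, 11 entered and 5 were higher with totals and with TMM factors, namely Spink5, Spink2, Fst, Fstl1 and Sparcl1. Spink2, a Kazal inhibitor, was at 10.96 RPKM in cluster 1 and 9.88 RPKM in cluster 3. Fst, which encodes the activin antagonist follistatin, was at 62.2 RPKM in cluster 1 and 97.5 RPKM in cluster 4, and Fstl1 was at 399.0 RPKM in cluster 1 and 411.9 RPKM in cluster 3. Sparc, the most abundant Kazal gene of cluster 1 at 4545 RPKM, had a ratio of 0.54 with totals and 0.47 with TMM factors, which made it the 1 gene lower in that scaling. Spink1, Spink6, Spink7, Spink11, Spink13 and Spink14 had no count in cluster 1. The 14 targets and partners of LEKTI in the files did not enter, since none exceeded 2 RPKM in a sorted library. Of the kallikrein-related peptidases, Klk5 and Klk14 had no count in cluster 1, Klk7 was at 0.0218 RPKM and Klk8 at 0.563 RPKM there. F2rl1, the receptor that such peptidases can activate, was at 1.77 RPKM in cluster 1 and 0.884 RPKM in cluster 3.

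**Figure D4:**
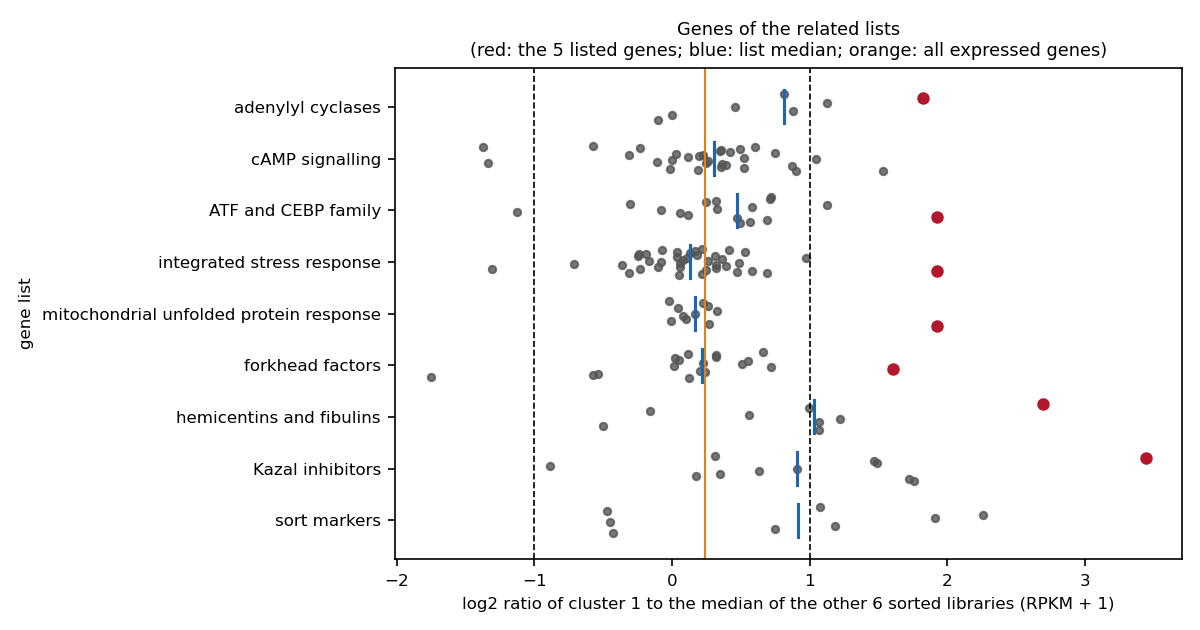
Log2 ratio of RPKM + 1 in cluster 1 to the median of the other 6 sorted libraries, with 1 point a gene, the 5 genes in red, the median of each list as a blue line and that of all expressed genes (0.24) as an orange line. Dashed lines mark 2-fold in either direction, and Atf5 appears in 3 lists in which few other genes lie beyond them.

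Because Spink5 is known from keratinocytes and Adcy8 from neurons, markers of these and other cells were examined in the same libraries. The 6 epithelial and keratinocyte markers summed to 1.10 RPKM in cluster 1, the lowest of the 8 libraries. Clusters 5 and 7 were close, at 1.32 and 1.38 RPKM, while clusters 2 and 6 had 7.18 and 6.48 RPKM and the input 8.55 RPKM. Krt5 had no count in cluster 1, Krt14 was at 0.0235 RPKM there and at 0.141 RPKM in the input, and Epcam, at 0.425 RPKM, was the most abundant. The 6 neuronal and glial markers summed to 10.3 RPKM in cluster 1, of which S100b, also expressed by cartilage, made up 9.21 RPKM, and Snap25 had 1 count. These markers summed to 116.2 RPKM in cluster 2 and 15.3 RPKM in the input, but to 10.2 and 9.09 RPKM in clusters 5 and 7. Whether such cells had a part in the levels of Spink5 and Adcy8 was not tested.

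Of the 6 markers of fibroblast progenitors of the adventitia, 5 were more than 2-fold higher in cluster 1 with totals and with TMM factors. These were Pi16, Dpp4, Cd55, Dpt and Cd34, and Anxa3 did not pass. The sum of all 6 markers was highest in cluster 1, at 575.8 RPKM. It was 451.6 RPKM in cluster 3, 375.0 in cluster 4 and 25.8 in cluster 6. Dpt, the most abundant, was at 358.9 RPKM in cluster 1, and Cd55 and Dpp4 were higher in cluster 3, at 111.6 and 20.9 RPKM, than in cluster 1. Rgs5, Acta2 and Myh11 of the 6 pericyte and smooth muscle markers were also higher. The sum of all 6, however, was 101.3 RPKM in cluster 1 and 109.1 RPKM in cluster 7. Myh11 is 1 of the 23 genes above 2-fold. Of the 6 marrow stromal markers, Pdgfra and Pdgfrb were higher with totals and none with TMM factors, and Cxcl12 was at 33.5 RPKM in cluster 1 against 139.3 RPKM in cluster 4.

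Markers of bone and cartilage were low in cluster 1 and in some of the other libraries. All 6 osteoblast markers were more than 2-fold lower, and their sum of 851.1 RPKM was the smallest of the 8 libraries. The sum of the input, 960.8 RPKM, held 739.8 RPKM of Spp1, against 194.0 RPKM in cluster 1. Bglap, Bglap2, Ibsp, Sp7 and Dmp1 were each lower in the input than in cluster 1. Bglap, the most abundant in cluster 1, was at 254.1 RPKM there and 14.4 RPKM in the input. It was at 14020 RPKM in cluster 3, but 190.3 RPKM in cluster 4 and 275.7 RPKM in cluster 7. Of the 6 chondrocyte markers 5 were lower, with Col2a1 at 191.6 RPKM against 10541 RPKM in cluster 6, and Sox9 was the exception. Col2a1 was at 133.9, 151.9 and 184.7 RPKM in clusters 3, 5 and 7, and the sum of the chondrocyte markers, 291.1 RPKM in cluster 1, was lower in cluster 3 (201.3), cluster 5 (221.0) and the input (193.5). Marker transcripts of blood and vessel cells were counted in every library, although those of T cells were few, with no count of Cd4 in cluster 5. Whether the cells themselves were present was not tested. Neutrophil markers summed to 14018 RPKM in cluster 1, led by S100a9, and to 41786 RPKM in the input, and Ltf and Ngp were more than 2-fold below the median in cluster 1, at 146.8 and 1369 RPKM, although cluster 3 was lower still, at 141.4 and 1196 RPKM. With TMM factors and DESeq2 size factors, Elane was also beyond 2-fold (0.459 and 0.446). Erythroid markers summed to 9969 RPKM in cluster 1, 49983 RPKM in cluster 5 and 447.6 RPKM in the input, the lowest of the 8 libraries although it is labelled as bone marrow, with Hbb-bt and Hba-a2 above 2-fold in cluster 1 by totals and Hbb-bt alone with TMM factors, although these lineages had been sorted out by CD45 and Ter119. B cell markers summed to 157.3 RPKM, macrophage markers to 21.9 RPKM, endothelial markers to 8.46 RPKM and T cell markers to 2.05 RPKM in cluster 1, with no gene above or below 2-fold by totals, although Cd68 of the macrophage markers was lower with TMM factors and DESeq2 size factors (0.471 and 0.454). The part of any of these cells in the levels of the 5 genes was not tested.

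**Figure D5:**
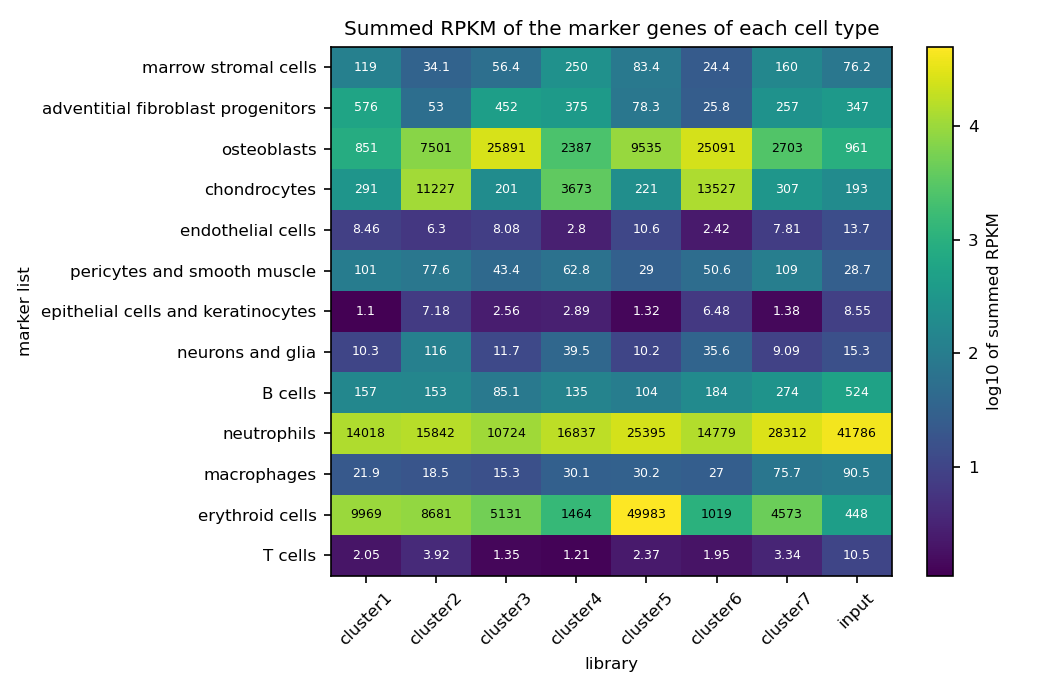
Summed RPKM of the marker genes of 13 cell types in each library, with colour on a log10 scale. In cluster 1, adventitial fibroblast markers reach their highest sum (576) and osteoblast (851) and epithelial (1.10) markers their lowest of the 8 libraries. Of the osteoblast markers, all but Spp1 are lower in the input than in cluster 1. Epithelial sums in clusters 5 and 7 are close to that of cluster 1, at 1.32 and 1.38.

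Around the 5 genes, 22 genes with RPKM above 2 in a sorted library lay within 200 kb, and 4 of them were highest in cluster 1, beside 21.3% of all genes. All 4, namely Cpt1c, Bcl2l12, Irf3 and Scaf1, lay near Atf5, which had 14 such neighbours, and none passed 2-fold against the median of the other 6 libraries. Apart from the overlapping ENSMUSG00000109511, the nearest expressed neighbours of Atf5 on either side, Tbc1d17 at 17965 bases and Vrk3 at 34741 bases, were highest in clusters 3 and 2. Hmcn2 had 6 neighbours, of which Ass1 at 9469 bases was highest in cluster 7 and Ncs1 at 18426 bases in cluster 3. Foxf2 had Foxc1 and Gmds, both highest in cluster 2, and Spink5 and Adcy8 had none.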

How the data were processed

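RNA-seq of 7 sorted populations and of input bone marrow cells was analysed, with 1 library each. The authors deposited raw read counts for 49315 Ensembl genes, with exon positions and lengths and without normalization. Per the labels and the methods of the study, reads were trimmed and aligned with TopHat2 to mm9 in Partek Flow 2.2, whereas the deposited coordinates are those of GRCm38, since 96.2% of 23296 symbols start within 10 kb of RefSeq GRCm38.p6. The counting tool and its strand setting are not given in the sources used here. The methods describe polyA selection and paired reads.

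RPKM was computed from the counts, the total on genes and the exon length. Counts have exact Poisson 95% intervals and ratios exact conditional binomial ones. With 1 library a group no test was run, and edgeR 4.0.16 and DESeq2 1.42.0 gave scaling factors only. Alternatives were these factors, a pseudocount of 0.1, thinning to 12833648 counts, totals without dominant loci or without mitochondrial and haemoglobin genes, omission of cluster 5, and other minima. Ratios to the input under other scalings were added after the data were seen. Symbols came from a name table and, for 7 listed genes and Rn18s-rs5, from RefSeq; Flg and Hbb-bs were not matched. The genes and lists were chosen with earlier results of these data known. The genes named are the 5, all others above the thresholds and the 5 nearest below, the 3 most similar to each, list genes beyond 2-fold and the 2 most abundant, sort markers and neighbours, with further members of the families as comparison. Of the genes this rule covers, 1 is not reported here. The calculations were tested on simulated data. R 4.3.3 was used with Python 3.11.15 and its packages matplotlib 3.10.9, scipy 1.17.1, pandas 2.3.3 and numpy 2.4.6.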

Additional observations from a re-analysis of the deposited data

How the results depend on the processing

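Of 125 recomputed values, 86 stayed within their limits, 39 moved and 0 of those beyond 2-fold reversed. Within 2-fold, the ratio of Adcy8 to the input changed sides, from 0.869 to 1.14 with TMM factors and 1.11 with DESeq2 size factors. All 5 genes stayed more than 2-fold above every other sorted library under each of the 7 alternatives run for them. The ratio of RPKM + 1 to the next library was, with TMM factors, 8.67 for Spink5, 2.85 for Adcy8, 2.44 for Atf5 and 2.24 for Hmcn2, and with DESeq2 size factors 8.503, 2.80, 2.27 and 2.27. With a pseudocount of 0.1 it was 36.5 for Spink5, 12.1 for Adcy8, 3.99 for Foxf2 and 2.78 for Hmcn2, as a smaller pseudocount must raise the ratios of low genes. With totals that left out the 3 dominant loci of cluster 5 it was 2.44 for Atf5. The 23 genes above 2-fold became 11 with TMM factors, 12 with DESeq2 size factors, 43 with a pseudocount of 0.1 and 59 without a count minimum. Among the results that moved, Foxf2 passed 2-fold against the input under 3 scalings, and with factors that lower cluster 1 lists lost genes on the higher side and some gained genes on the lower side. No paired analysis was possible because each group had 1 library. Depth limits the low libraries most, where Spink5 and Adcy8 rest on 1 to 34 counts, and the spread between animals or sorts is unknown.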
